A study of Mus musculus with 6 samples.

Results

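Fatty acid synthesis and desaturation were followed here through 9 genes of the pathway in cells from mouse skin squamous cell carcinoma: Acly, Me1, Acaca, Fasn, Elovl6, Elovl1, Scd1, Scd2 and Srebf1. The members were found by gene symbol, each symbol had 1 row among the 55481 rows of the deposited table, and all 9 were among the 13474 genes tested. Tumours were induced in the skin with DMBA, a carcinogen, and TPA, a promoter of tumour growth. The values come from cell populations of these tumours: cells that carried much integrin alpha chain Itga6 and were positive for CD80, which the submitters call tumour stem-like (Itga6hi CD80pos), and cells with low Itga6 and no CD80, which they call differentiated cancer cells (Itga6low CD80neg). Each had 2 libraries of bulk polyA RNA, and the third labelled group, Itga6hi CD80neg, was not analysed here. Both populations came from tumours raised in the same way, so neither is untreated skin. Strain, sex, age, the gates beyond Itga6 and CD80, and whether a library came from 1 animal or a pool are not given in the sources used here. The p-values therefore measure only the spread between these libraries, which may be technical.

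Cells build fatty acids in the cytosol from citrate. ATP citrate lyase (Acly) releases acetyl-CoA, acetyl-CoA carboxylase (Acaca) turns it into malonyl-CoA, and fatty acid synthase (Fasn) joins these units into palmitate with NADPH, part of which comes from malic enzyme (Me1). Elongases (Elovl6, Elovl1) lengthen the chains, stearoyl-CoA desaturases (Scd1, Scd2) place a double bond in them, and the transcription factor SREBP-1, made from Srebf1, switches on most of these enzymes. In skin the products go into membranes, barrier lipids and sebum.

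Values are TPM, transcript levels corrected for gene length and scaled to a total of 1000000 in each library, so levels of different genes can be compared within a library but sequencing depth is unknown. The libraries differed strongly in make-up. Haemoglobin genes held 0.0185% and 0.00621% of TPM in Itga6hi CD80pos replicates 1 and 2 and 70.9% and 50.4% in Itga6low CD80neg replicates 1 and 2. The summed level of 12 keratinocyte markers ran from 49508 to 50117 TPM in Itga6hi CD80pos and from 2176 to 6395 TPM in Itga6low CD80neg. On deposited TPM 11 of the 12 were higher and 0 lower, beside 57.0% and 9.48% of all genes tested. The summed level of 10 fibroblast markers ran from 63.7 to 88.6 TPM and from 5753 to 9262 TPM, and 9 of the 10 were lower. The Itga6low CD80neg libraries, labelled as cancer cells, thus held red cell and fibroblast RNA, and less RNA of most keratinocyte markers than Itga6hi CD80pos. Whether they hold the cells that the label names, and the part this plays in the results below, was not tested. In bulk RNA, fewer cells of a type and less RNA per cell cannot be told apart. On deposited TPM the tested genes as a whole were shifted, with a median log2 fold change of 1.27, which was 0.16 with haemoglobin genes left out of the total. Every fold change, or log2 difference, is Itga6hi CD80pos minus Itga6low CD80neg on log2(TPM + 1), which understates the change of low genes, and is read against those medians.

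On deposited TPM, 8 of the 9 genes were higher in Itga6hi CD80pos and 0 were lower (limma, Benjamini-Hochberg adjusted p under 0.05). Of all genes tested 57.0% were higher and 9.48% were lower, so the count stands above the background but rests on a shift shared by most genes. The members' median log2 fold change was 2.49, and 8 of 9 lay above the median of all tested genes. After removal of haemoglobin, 2 of the 9 were higher, Fasn and Elovl6, where 7.71% of all genes tested were higher and 10.8% were lower. At an unadjusted limma p under 0.05, 5 of the 9 were higher and 0 lower. Of all 13468 genes tested, 2527 were higher and 2390 lower at that p. The members' median was then 1.14, and again 8 of 9 lay above the median of all tested genes. Both groups' libraries were apart for all 9 genes on deposited TPM, as they were in that direction for 73.5% of all genes tested and in the other for 12.9%. On the haemoglobin-free total, 6 of the 9 were still higher in both Itga6hi CD80pos libraries (38.3% of all genes tested), Me1 was lower in both (28.8%), and Scd2 and Srebf1 overlapped.

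**Figure D1:**
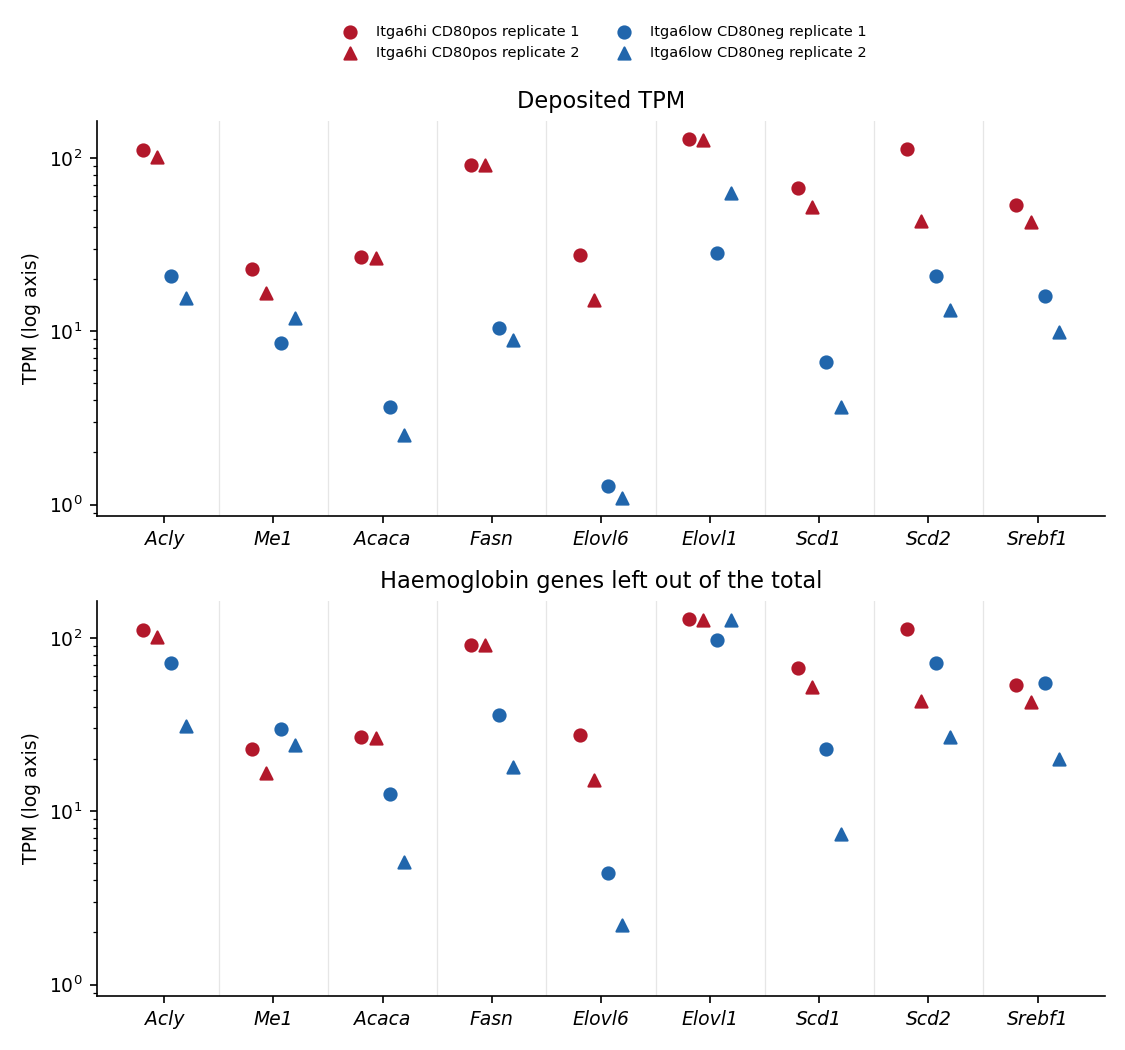
Level of each of the 9 genes in each library, in TPM on a log axis, on deposited TPM (upper panel) and with haemoglobin genes left out of the total (lower panel); red points are Itga6hi CD80pos, blue points Itga6low CD80neg, circles replicate 1 and triangles replicate 2. The groups were apart for all 9 genes in the upper panel, and in the lower panel Me1 changed sides while Scd2 and Srebf1 overlapped.

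Acly (GRCm38 chr11:100476353-100528000, minus strand), which supplies the acetyl-CoA, stood at 111 and 101 TPM in Itga6hi CD80pos and at 20.9 and 15.5 TPM in Itga6low CD80neg. Its log2 fold change was 2.49 ± 0.35 (SE, limma adjusted p = 0.00585), at the 90.7th percentile of all tested genes. With haemoglobin left out, the libraries stood at 111 and 101 TPM against 72.0 and 31.2 TPM, still apart, with a log2 fold change of 1.14 ± 0.43 and no call (adjusted p = 0.135).

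Me1 (GRCm38 chr9:86581371-86695953, minus strand), the cytosolic malic enzyme that makes NADPH from malate, had the smallest difference of the 9. It stood at 22.7 and 16.6 TPM against 8.61 and 11.9 TPM, giving a log2 fold change of 0.87 ± 0.34 (SE) that did not pass (limma adjusted p = 0.0674) and lay under the 1.27 of all genes. Without haemoglobin in the total, it stood at 22.7 and 16.6 TPM against 29.6 and 24.1 TPM, so both Itga6hi CD80pos libraries lay below both others. That log2 fold change, -0.44 ± 0.30, did not pass either (adjusted p = 0.351). The direction of Me1 therefore depends on the scaling: its fold change was also below 0 under the other 3 scalings tried, down to -0.60. Reads could in principle be shared with Gm7049 and Gm7329, since 30.0% of the 31-base runs in Me1 transcripts also occur there, but both were listed at 0.0259 TPM or less in every library.

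The committed step and the synthase moved side by side. Acaca (GRCm38 chr11:84129672-84401651, plus strand) was measured at 26.9 and 26.4 TPM against 3.66 and 2.54 TPM, giving a log2 fold change of 2.77 ± 0.30 (SE, limma adjusted p = 0.00434). Fasn (GRCm38 chr11:120805846-120824547, minus strand) was measured at 90.5 and 91.2 TPM against 10.5 and 8.89 TPM, giving a log2 fold change of 3.11 ± 0.31 (adjusted p = 0.00394). Both pairs of Itga6hi CD80pos libraries were nearly equal, and none overlapped with Itga6low CD80neg. After removal of haemoglobin, Fasn stood at 90.6 and 91.2 TPM in Itga6hi CD80pos against 35.95 and 17.9 TPM and stayed higher (log2 fold change 1.80 ± 0.38, adjusted p = 0.0388). Acaca stood at 26.9 and 26.4 TPM against 12.6 and 5.11 TPM with a log2 fold change of 1.60 ± 0.47, and its call was lost (adjusted p = 0.0779). The ratio of Fasn to Acaca TPM, which no single factor per library can change, was 3.36 and 3.45 in Itga6hi CD80pos and 2.85 and 3.50 in Itga6low CD80neg, so it overlapped. Acaca shares 5412 of its 17075 transcript runs of 31 bases with Gm5182, which was listed at 0.0812 TPM or less in every library.

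The elongases had unequal fold changes, and that difference was not tested. Elovl6 (GRCm38 chr3:129532355-129638495, plus strand), which takes palmitate to stearate, stood at 27.5 and 15.2 TPM against 1.28 and 1.10 TPM, giving a log2 fold change of 3.30 ± 0.37 (SE, limma adjusted p = 0.00452). On the haemoglobin-free total, it stood at 27.5 and 15.2 TPM in Itga6hi CD80pos against 4.39 and 2.21 TPM and stayed higher (2.37 ± 0.49, adjusted p = 0.0373), at the 97.9th percentile of all tested genes, the highest of the 9. Elovl1 (GRCm38 chr4:118428093-118432953, plus strand), which extends very long chains, stood at 129 and 127 TPM against 28.2 and 62.6 TPM, with a log2 fold change of 1.59 ± 0.49 (adjusted p = 0.0342). On deposited TPM its Itga6low CD80neg libraries differed from each other more than those of the other 8 genes, yet both lay below Itga6hi CD80pos. With haemoglobin left out, its levels were almost level, at 129 and 127 TPM against 96.9 and 126 TPM, and the log2 fold change of 0.21 ± 0.23 stood near the 0.16 of all genes (adjusted p = 0.551). The ratio of Elovl6 to Elovl1 TPM was 0.213 and 0.120 against 0.0453 and 0.0175, higher in both Itga6hi CD80pos libraries. Elovl1 overlaps Cdc20, a gene of dividing cells, on the opposite strand. Cdc20 stood at 131 and 102 TPM in Itga6hi CD80pos against 4.64 and 7.60 TPM, and whether the libraries or the counting kept strand is not given in the sources used here.

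The desaturases had unequal fold changes too, again without a test between them. Scd1 stood at 67.0 and 52.1 TPM against 6.66 and 3.64 TPM, giving a log2 fold change of 3.33 ± 0.38 (SE, limma adjusted p = 0.00462), the largest of the 9 on deposited TPM. Without haemoglobin in the total, it stood at 67.0 and 52.1 TPM against 22.9 and 7.34 TPM, apart but without a call (2.09 ± 0.56, adjusted p = 0.0637). Scd2, the isoform described in many tissues outside the liver, stood at 112 and 43.4 TPM against 20.8 and 13.3 TPM, with a log2 fold change of 2.01 ± 0.55 (adjusted p = 0.0246). Its Itga6hi CD80pos libraries lay farther apart than those of any other member. After removal of haemoglobin, Scd2 stood at 112 and 43.4 TPM against 71.4 and 26.8 TPM, so the groups overlapped (0.66 ± 0.66, adjusted p = 0.515). The ratio of Scd1 to Scd2 TPM was 0.598 and 1.20 in Itga6hi CD80pos and 0.321 and 0.274 in Itga6low CD80neg, higher in both Itga6hi CD80pos libraries. The pair lies on chromosome 19 (GRCm38), Scd2 at 44293674 to 44306864 on the plus strand and Scd1 at 44394455 to 44407879 on the minus strand. They share 253 runs of 31 bases, of 4880 in Scd1 and 5461 in Scd2, so most such runs are not shared between them. Scd3 stood at 0.932 and 1.64 TPM against 0.196 and 0.00800 TPM, under the filter of at least 1 TPM in at least 2 libraries, and Scd4 stood at 0.0364 TPM or less.

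**Figure D2:**
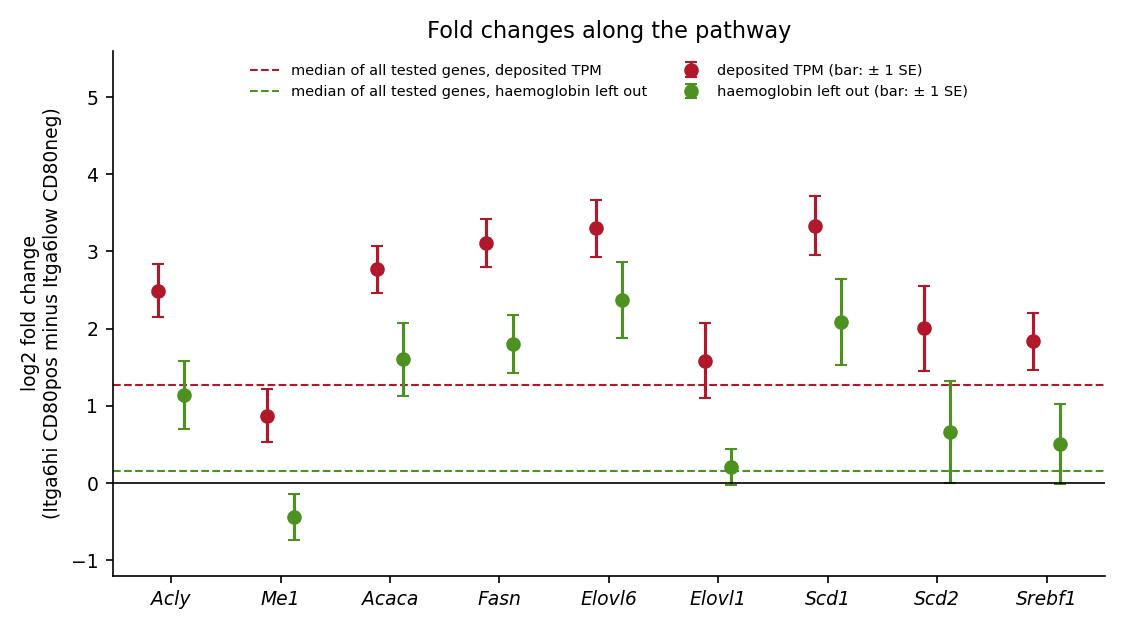
log2 fold change of each gene, Itga6hi CD80pos minus Itga6low CD80neg, on log2(TPM + 1), with bars of 1 SE; red is deposited TPM, green is haemoglobin left out, and the dashed lines are the medians of all tested genes, 1.27 and 0.16. Scd1, Elovl6, Fasn and Acaca sit farthest above both lines, Elovl1 close to them, and Me1 below them.

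Srebf1 (GRCm38 chr11:60199089-60222581, minus strand), the gene of the regulator, had a smaller fold change than 6 of the 8 enzymes, a difference that was not tested. It stood at 53.5 and 42.7 TPM against 16.1 and 9.97 TPM, giving a log2 fold change of 1.84 ± 0.37 (SE, limma adjusted p = 0.0112), at the 72.5th percentile of all tested genes. On the haemoglobin-free total, it stood at 53.5 and 42.7 TPM against 55.2 and 20.1 TPM, so the groups overlapped (0.50 ± 0.52, adjusted p = 0.527). Srebf1 overlaps Rai1 on the opposite strand, which stood at 12.2 and 11.4 TPM in Itga6hi CD80pos against 3.23 and 2.66 TPM. The limit on strand given for Elovl1 holds here too. The values of Srebf1 are levels of its RNA. SREBP-1 is made as a membrane protein that must be cut to act, which RNA does not show, and isoforms 1a and 1c are not split in a table of genes.

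Promoter windows are shown for Fasn and Elovl6, whose calls held under every scaling tried, for Me1, which passed under none, and for Srebf1, their regulator. Windows run from 250 bases before to 50 after a RefSeq start (GRCm38.p6), 5′ to 3′ on the gene's strand, and 7 of the 9 genes had 11 windows, with none for Scd1 and Scd2. Capitals mark the letters CCAAT, bound by NF-Y, and GGGCGG, bound by Sp1, on either strand; both factors are known partners of SREBP. Where a gene had several listed starts, the window of the most upstream is shown.
Fasn, chr11:120824498-120824797, minus strand: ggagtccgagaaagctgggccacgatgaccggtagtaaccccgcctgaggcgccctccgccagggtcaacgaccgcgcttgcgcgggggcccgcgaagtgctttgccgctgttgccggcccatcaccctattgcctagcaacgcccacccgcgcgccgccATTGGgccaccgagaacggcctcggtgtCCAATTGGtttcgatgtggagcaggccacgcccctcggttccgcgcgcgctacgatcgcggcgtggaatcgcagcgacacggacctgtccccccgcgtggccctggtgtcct
Elovl6, chr3:129532136-129532435, plus strand: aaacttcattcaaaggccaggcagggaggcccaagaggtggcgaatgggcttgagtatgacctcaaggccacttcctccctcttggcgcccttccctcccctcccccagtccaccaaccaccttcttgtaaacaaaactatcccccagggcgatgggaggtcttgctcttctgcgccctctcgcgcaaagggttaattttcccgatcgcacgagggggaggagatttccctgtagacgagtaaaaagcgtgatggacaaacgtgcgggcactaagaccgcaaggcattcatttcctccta
Me1, chr9:86695865-86696164, minus strand: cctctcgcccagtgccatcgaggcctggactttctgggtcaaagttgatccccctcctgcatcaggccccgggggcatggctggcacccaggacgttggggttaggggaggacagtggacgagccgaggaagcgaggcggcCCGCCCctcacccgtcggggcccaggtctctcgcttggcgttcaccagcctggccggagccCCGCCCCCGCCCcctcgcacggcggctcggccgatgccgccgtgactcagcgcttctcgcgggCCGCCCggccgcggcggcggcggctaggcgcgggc
Srebf1, chr11:60222532-60222831, minus strand: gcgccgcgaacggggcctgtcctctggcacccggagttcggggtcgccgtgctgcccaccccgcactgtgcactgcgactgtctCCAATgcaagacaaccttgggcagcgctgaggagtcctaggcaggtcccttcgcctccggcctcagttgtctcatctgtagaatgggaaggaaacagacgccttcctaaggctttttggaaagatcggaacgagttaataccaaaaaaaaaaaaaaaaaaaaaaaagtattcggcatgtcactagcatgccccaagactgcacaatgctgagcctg
Fasn held 3 matches to CCAAT, of which 2 overlap on opposite strands, and 0 to GGGCGG. In the windows shown, Elovl6 held neither, Me1 held 4 matches to GGGCGG and 0 to CCAAT, and Srebf1 held 1 to CCAAT and 0 to GGGCGG. Windows of starts farther downstream differed. That of Me1 held 1 match to CCAAT and 0 to GGGCGG. Of those of Srebf1, the first held 0 to CCAAT and 3 to GGGCGG, and the next 1 to CCAAT and 2 to GGGCGG. Over all windows of the 9 genes, 6 of 11 held CCAAT and 6 of 11 held GGGCGG, against 37.4% and 35.7% of all 32851 windows. The sterol element letters TCACNCCAC and the E-box CACGTG had 0 matches in the 11 windows, against 1.24% and 7.15% of all windows. These are matches of letters in short windows and not measured sites.

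Within the set, the balance of the genes shifted in ways that no single factor per library can change. The 9 genes summed to 640 and 516 TPM in Itga6hi CD80pos and to 117 and 129 TPM in Itga6low CD80neg. As a percent of that sum, 4 genes were higher in both Itga6hi CD80pos libraries, Acaca, Fasn, Elovl6 and Scd1, 1 was lower, Me1, and 4 overlapped. Divided by the same sum, 12.8% of all genes tested were higher in both and 52.6% were lower in both. Fasn made up 14.1% and 17.7% of the sum against 8.96% and 6.87%. Scd1 made up 10.5% and 10.1% against 5.71% and 2.81%. Acaca made up 4.21% and 5.13% against 3.14% and 1.96%, and Elovl6 4.30% and 2.95% against 1.09% and 0.847%. These 4 carry out steps from the making of malonyl-CoA to stearate and its desaturation. Me1 made up 3.55% and 3.21% against 7.39% and 9.23%, and Elovl1 20.2% and 24.7% against 24.2% and 48.3%. A shift in shares shows unequal change and not which gene changed. With 2 libraries against 2, an exact permutation test has 0.3333 as its smallest possible p, so shares and ratios are given without a test.

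**Figure D3:**
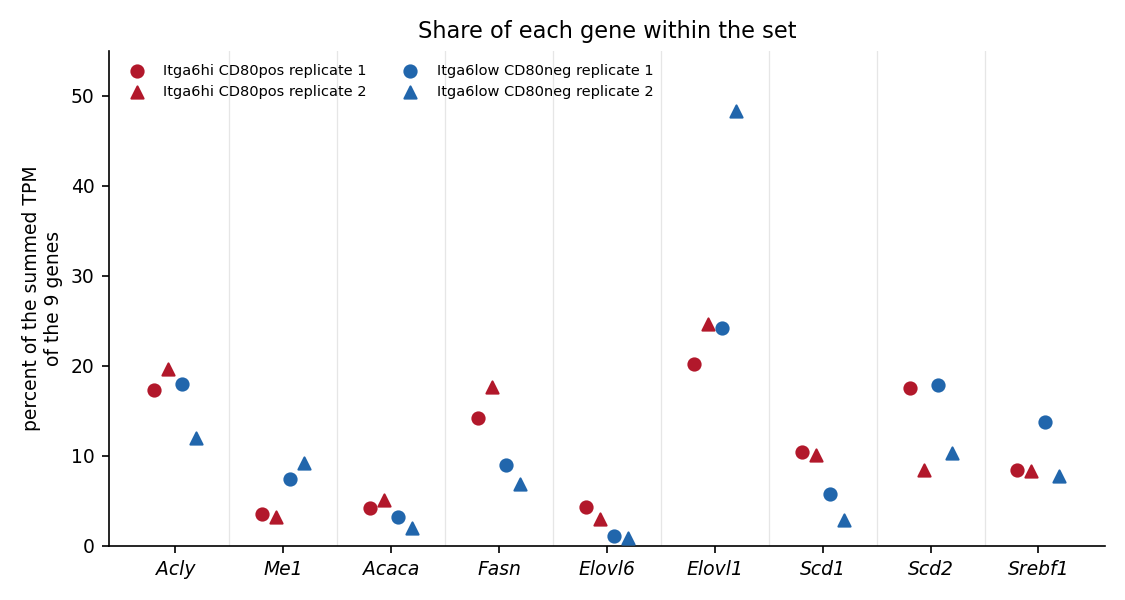
Share of each gene in the summed TPM of the 9 genes, in percent, for each library; colours and symbols are those of the plot of levels. Acaca, Fasn, Elovl6 and Scd1 are higher in both red libraries and Me1 lower, while Elovl1 reaches 48.3% in Itga6low CD80neg replicate 2.

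The order of levels differed between the populations. In Itga6hi CD80pos, mean TPM fell from Elovl1 (128 ± 1.45, SD, n = 2) through Acly (106 ± 7.02) and Fasn (90.9 ± 0.480) to Scd2 (77.7 ± 48.5), Scd1 (59.5 ± 10.6) and Srebf1 (48.1 ± 7.67). Acaca (26.7 ± 0.350), Elovl6 (21.4 ± 8.71) and Me1 (19.6 ± 4.34) were lowest. In that order Elovl1, Acly and Fasn did not overlap with one another, whereas Scd2 overlapped with Acly, Fasn, Scd1 and Srebf1, Scd1 with Srebf1, and Elovl6 with Acaca and Me1. In Itga6low CD80neg, Elovl1 (45.4 ± 24.3 TPM) was again highest, and Acly (18.2 ± 3.86), Scd2 (17.0 ± 5.29), Srebf1 (13.0 ± 4.31), Me1 (10.3 ± 2.36) and Fasn (9.67 ± 1.10) followed, each overlapping with the next. Scd1 (5.15 ± 2.13) and Acaca (3.10 ± 0.797) overlapped with each other, and Elovl6 (1.19 ± 0.127) was lowest. Me1 thus ranked 9 of 9 in one population and 5 of 9 in the other, and Fasn 3 and 6.

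With the tested genes of the full fit kept, calls on the members, as on all tested genes, mostly fell away without 1 Itga6hi CD80pos library. More calls were kept when the filter was applied again to the libraries left, so the losses depended partly on the filter. Without replicate 1 and without replicate 2 of that group, the log2 fold change of Fasn was 3.12 and 3.10, against 3.11 with no library left out. That of Scd2, which moved most, was 1.33 and 2.68 against 2.01. Without replicate 1 of that group, limma called 0 of the 9, although 5 had an unadjusted p under 0.05. It then called 0.00% of all genes tested, where an unadjusted p under 0.05 was met by 4442 genes higher and 1033 lower. Without replicate 2 of that group the log2 fold change of Elovl6 was 3.71, against 3.30 with no library left out. Without 1 of the Itga6low CD80neg libraries 7 of the 9 were called, against 55.2% and 61.1% of all genes tested without replicates 1 and 2, and the call lost was that of Scd2 (adjusted p = 0.0855 without replicate 1 and 0.142 without replicate 2). In each of these fits the lone library of a group is assumed to vary like the other group, and all 9 fold changes stayed above 0. Over the 5 scalings, counting deposited TPM as 1 of them, Fasn and Elovl6 were called in all 5, Acaca and Scd1 in 3, Acly, Elovl1, Scd2 and Srebf1 in 1, and Me1 in 0. Of all genes tested, 6.23% were higher with median-of-ratios scaling, 10.7% with quantile normalization and 13.9% with mitochondrial, ribosomal protein, haemoglobin and keratin genes left out.

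Counts of calls in the other lists of the pathway are read against the share of all tested genes that were higher, 57.0% on deposited TPM and 7.71% with haemoglobin left out. Of 8 tested enzymes that supply precursors and NADPH, 7 were higher and 0 lower on deposited TPM, above the 57.0%, with a median log2 fold change of 2.00. Of these 2 were higher with haemoglobin left out, with a median of 0.64. G6pdx, the entry enzyme of the pentose phosphate pathway and a source of NADPH, stood at 165 and 107 TPM against 15.3 and 26.1 TPM (log2 fold change 2.67 ± 0.44, SE, limma adjusted p = 0.00745). Pgd, the next NADPH-forming enzyme, stood at 201 and 128 TPM against 21.6 and 27.9 TPM (log2 difference 2.66 ± 0.41, adjusted p = 0.00669). Cs, the citrate synthase, stood at 173 and 137 TPM against 21.8 and 28.0 TPM (log2 difference 2.59 ± 0.37, adjusted p = 0.00603). With haemoglobin left out, G6pdx and Cs stayed higher and Pgd did not pass (adjusted p = 0.0531). Both pentose phosphate enzymes had larger fold changes than Me1 and Idh1, other sources of NADPH, though these differences were not tested. Idh1, the cytosolic isocitrate dehydrogenase, had a log2 difference of 1.32 ± 0.46 (adjusted p = 0.0480) on deposited TPM and of -0.05 ± 0.39 (adjusted p = 0.941) with haemoglobin left out. Acss2, which makes acetyl-CoA from acetate, passed under neither, with log2 differences of 0.37 and -0.86. Idh1 and Acss2 were chosen after their values were seen. Pc, on the list, was not used here.

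Among other enzymes of synthesis, elongation and desaturation, 10 of 19 tested were higher, a share below the 57.0% of all tested genes, and 1 was lower. Their median log2 fold change was 1.48, and 2 were higher and 1 lower with haemoglobin left out, with a median of 0.33. Tecr, the reductase of the elongation cycle, stood at 280 and 244 TPM against 41.5 and 60.4 TPM (log2 fold change 2.36 ± 0.41, SE, limma adjusted p = 0.00821). Cyb5b, a cytochrome b5, stood at 80.7 and 58.1 TPM against 8.77 and 10.4 TPM (log2 difference 2.72 ± 0.34, adjusted p = 0.00525). Both stayed higher with haemoglobin left out. Fads3, of the front-end desaturase family, stood at 34.9 and 54.2 TPM against 6.97 and 4.57 TPM (log2 difference 2.74 ± 0.38, adjusted p = 0.00583) and did not pass there (adjusted p = 0.116). Hacd4, a dehydratase of the elongation family, was lower, standing at 0.232 and 0.753 TPM against 2.65 and 2.80 TPM (log2 difference -1.34 ± 0.30, adjusted p = 0.0143), also with haemoglobin left out. Hacd4 passed the filter only through the Itga6low CD80neg libraries, which favoured a call in that direction.

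Among regulators of lipid synthesis, 14 of 19 tested were higher (57.0% of all tested genes) and 0 lower, with a median log2 fold change of 1.52. On the haemoglobin-free total 1 of 19 was higher, a share below the 7.71% of all tested genes, with a median of 0.24. That one was Scap, the escort that carries SREBP to where it is cut, at 79.4 and 67.4 TPM against 8.64 and 9.81 TPM (log2 fold change 2.86 ± 0.31, SE, limma adjusted p = 0.00432). Srebf2, the gene of the SREBP that favours sterol genes, stood at 89.8 and 81.5 TPM against 17.0 and 16.8 TPM (log2 difference 2.27 ± 0.32, adjusted p = 0.00586). Mid1ip1, which activates acetyl-CoA carboxylase, stood at 106 and 71.6 TPM against 18.0 and 19.7 TPM (log2 difference 2.15 ± 0.36, adjusted p = 0.00770). Insig1, which holds SCAP and SREBP back and was chosen after its values were seen, stood at 24.8 and 21.1 TPM in Itga6hi CD80pos against 15.4 and 20.7 TPM and did not pass (log2 difference 0.34 ± 0.33, adjusted p = 0.385). Its direction turned with the scaling: on the haemoglobin-free total Insig1 was listed at 24.8 and 21.1 TPM against 53.1 and 41.8 TPM (log2 difference -1.01 ± 0.26, limma adjusted p = 0.0610), and it was called lower in 2 of the 5 scalings, with a log2 difference down to -1.16.

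The sterol arm, which SREBP factors also serve, was higher in 22 of 23 tested members, where 57.0% of all tested genes were higher, and lower in 1, with a median log2 fold change of 1.85, under the 2.49 of the 9 fatty acid genes. Without haemoglobin in the total, 3 of the 23 were higher (7.71% of all tested genes) and 1 lower, with a median of 0.61. Dhcr7, a reductase of the last steps of cholesterol synthesis, stood at 51.7 and 34.3 TPM against 4.82 and 5.41 TPM (log2 fold change 2.82 ± 0.34, SE, limma adjusted p = 0.00489), and Hsd17b7 at 30.0 and 38.2 TPM against 4.21 and 5.67 TPM (log2 difference 2.57 ± 0.32, adjusted p = 0.00525). Both stayed higher with haemoglobin left out.

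Genes that use or break down fatty acids had medians nearer to that of all tested genes than the 9 synthesis genes did. For activation and glycerolipid synthesis 10 of 13 tested were higher (57.0% of all tested genes) and 0 lower, with a median log2 fold change of 1.45, and limma called 0 with haemoglobin left out (0 at an unadjusted p under 0.05), with a median of 0.28. Acsl5, Acsl1 and Acsl4, which join fatty acids to coenzyme A, had the largest fold changes of that list, from 1.69 to 1.76. For oxidation 15 of 15 tested were higher, again beside 57.0% of all tested genes, with a median of 1.55, and limma called 0 with haemoglobin left out (1 at an unadjusted p under 0.05), with a median of 0.21. Cpt1a, which admits fatty acids to mitochondria, stood at 44.9 and 32.2 TPM against 10.6 and 3.59 TPM (log2 fold change 2.42 ± 0.52, SE, limma adjusted p = 0.0130). Hadh and Acads, enzymes of the oxidation cycle, had log2 fold changes of 2.09 and 2.05. The median of the 9 synthesis genes was larger than that of every other pathway list under both scalings, and the median of the keratinocyte markers, 3.94 and 2.62, was larger still.

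**Figure D4:**
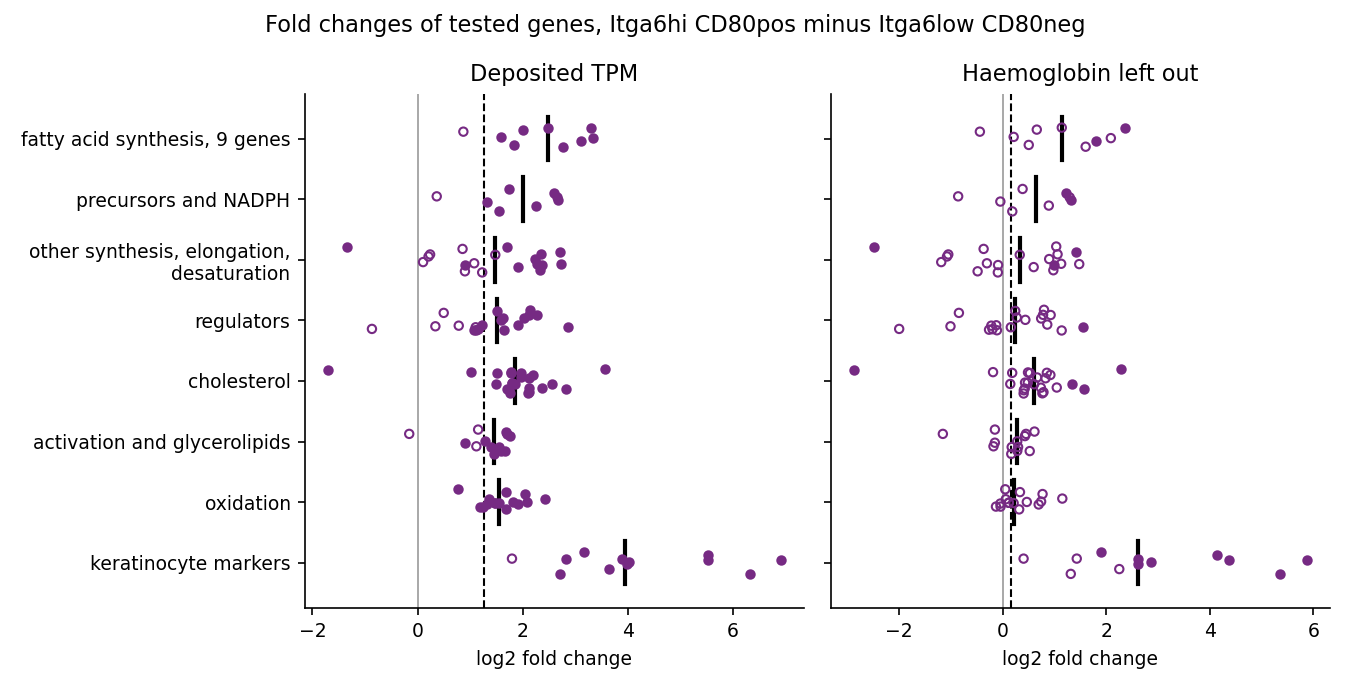
log2 fold change of every tested gene in 7 pathway lists and of the keratinocyte markers, on deposited TPM (left) and with haemoglobin left out (right); filled points passed the adjusted p of 0.05, open points did not, thick bars are list medians and the dashed line is the median of all tested genes. The median of the 9 genes is 2.49 and 1.14, against 1.55 and 0.21 for oxidation.

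Fat cells and sebaceous cells are rich in these enzymes, so their markers are given beside the result. Of 9 adipocyte markers, Adipoq was listed at 0 in all libraries and 6, counting Adipoq, stayed under 1 TPM. Cidec, which was untested, stood at 1.05 and 0.290 TPM in Itga6hi CD80pos against 0 and 0 TPM. Lipe stood at 3.88 and 3.64 TPM against 2.26 and 1.64 TPM, without a call. Fabp4, which fat cells share with other cells, made up nearly all of the list's summed level, with 1039 and 348 TPM against 104 and 184 TPM. On deposited TPM it was called higher (log2 fold change 2.11 ± 0.70, SE, limma adjusted p = 0.0434). With haemoglobin left out, Fabp4 stood at 1039 and 348 TPM against 359 and 370 TPM, so the groups overlapped (log2 fold change 0.72 ± 0.55, SE, limma adjusted p = 0.401). On deposited TPM the summed level of the list ran from 353 to 1044 TPM in Itga6hi CD80pos and from 108 to 186 TPM in Itga6low CD80neg. Of 12 sebocyte markers, 5 stayed under 1 TPM in all libraries (Mc5r, Awat1, Awat2, Dgat2l6 and Plin5). On deposited TPM 5 of 7 tested were higher and 0 lower, beside 57.0% and 9.48% of all genes tested. After removal of haemoglobin Krt79 and Fa2h were still higher, and the median log2 fold change of the list was 1.34, above the 1.14 of the 9 synthesis genes. Mgst1 and Soat1, named after their values were seen, then had log2 fold changes of -0.80 and -0.73 without a call (limma adjusted p = 0.208 and 0.347). Mgst1 then stood at 158 and 96.6 TPM against 280 and 167 TPM. Fa2h, a fatty acid hydroxylase chosen after its values were seen, stood at 10.1 and 7.03 TPM in Itga6hi CD80pos and at 0.0253 and 0 TPM in Itga6low CD80neg, and was called higher in all 5 scalings. It passed the filter only through the Itga6hi CD80pos libraries, which favoured a call in that direction. On deposited TPM the summed level of the sebocyte markers ran from 323 to 403 TPM against 106 to 109 TPM. Krt79, a keratin of hair follicle openings and sebaceous ducts, stood at 119 and 272 TPM against 12.6 and 15.96 TPM. Mgst1, not called in any of the 5 scalings, stood at 158 and 96.6 TPM against 81.3 and 82.9 TPM. It made up most of the Itga6low CD80neg sums. Whether such cells take part in the result was not tested.

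The genes whose profile over the 4 libraries was most like the mean of the 9 were found by Euclidean distance between centred log2(TPM + 1) values, outside the gene lists. Tnks2, a tankyrase, was closest, with a distance of 0.0273, and stood at 61.3 and 47.0 TPM against 10.1 and 8.76 TPM. Pax9, a transcription factor of squamous epithelia, followed with a distance of 0.0673, and stood at 6.40 and 4.54 TPM against 0.289 and 0.215 TPM. Frmd8, Ndc1 and Cwc22 came next, at distances of 0.0827, 0.0883 and 0.0915. The 9 genes themselves lay between 0.274 (Acly) and 1.55 (Me1) from their mean, and the median distance of all tested genes was 1.36. With 4 libraries in 2 groups, such a likeness mostly reflects a similar difference between the groups, and the log2 fold changes of these 5 genes ran from 2.31 (Frmd8) to 2.44 (Ndc1).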

How the data were processed

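The deposited values are TPM per gene, which the authors made with kallisto 0.44.0 and the genome build mm10, per the submitters' processing notes; libraries were made with a NEBNext low-input kit from RNA of a Zymo Microprep kit, per the labels' protocols. Each TPM column sums to 1000000, so the sequencing depth, and any interval that needs counts, is unknown. The annotation and the step from transcripts to genes are not given in the sources used here. Genes that reached 1 TPM or more in 2 or more libraries were tested on log2(TPM + 1) with limma 3.58.1 in R 4.3.3 (2 residual and 3.33 prior degrees of freedom, eBayes with a trend, two-sided), adjusted over all 13474 genes by Benjamini-Hochberg at 0.05. The fit was laid out for 6 libraries and run on the 4 in the table. For the second scaling, 11 haemoglobin genes were removed and each library was rescaled to 1000000. The test was run on simulated data in which low genes were raised to a common level. No shift in make-up between libraries was built in, so that check does not cover these features of the data. Alternatives were other pseudocounts, filters and scalings, a replicate block, no trend, and leaving out each library.

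The members and gene lists were chosen with earlier results of these data known. Named genes were the 9 members, the 3 called genes with the largest change in each pathway list and the largest call of opposite sign, the most abundant gene of each cell type list, and the 5 genes most like the members. Some genes given by this rule are not reported here. Coordinates, overlapping genes and shared transcript runs come from GENCODE M21 (GRCm38), and promoter windows from RefSeq (GRCm38.p6).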

Additional observations from a re-analysis of the deposited data

How the results depend on the processing

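The scaling of libraries and the Itga6hi CD80pos libraries moved these results most. The 8 members called higher became 2 with median-of-ratios scaling, 4 with quantile normalization, 2 without haemoglobin genes and 4 without mitochondrial, ribosomal protein, haemoglobin and keratin genes. All tested genes called higher (7686) became 839, 1448, 1039 and 1851 in that order, and 4564 with no filter on low values, where Elovl1 (adjusted p = 0.0928) and Scd2 (0.0873) lost their calls. Called lower (1277) became 613 with a mean of at least 5 TPM, where Me1 passed (adjusted p = 0.0484). Leaving out 1 library gave 0 to 7 members called higher, 0 to 8227 genes higher and 0 to 1237 lower. With the filter applied again to the 3 libraries left, an alternative chosen after seeing the data, 5 and 7 members were called without Itga6hi CD80pos replicates 1 and 2 and 8 without either Itga6low CD80neg library. Genes called higher were then 2947, 3762, 7717 and 8386, and lower 813, 931, 453 and 455, in the same order. The log2 fold change of Me1 reversed to -0.60, -0.43, -0.44 and -0.20 under the 4 scalings in that order, and the log2 fold change of Cd74 to -0.88, -0.60, -0.76 and -0.54. Without 1 library Cd74 ran from -0.82 to 1.86, also where the filter was applied again, with -0.48 without Itga6low CD80neg replicate 1, and the log2 fold change of S100a9 ran from -1.67 to 0.46. The cause was not tested. Over 18 alternatives Elovl6 kept its direction and call in 17, Fasn in 16, Acaca and Scd1 in 14, Acly in 12, Srebf1 in 11, Elovl1 in 9 and Scd2 in 7. Libraries shared only a replicate number (correlation of deviations 0.109, 2 pairs), and with the replicate block 8 members were called, with 8044 genes higher and 1452 lower. Adding up rows of a repeated symbol was not run, since 0 members had one. Depth is unknown and sets no stated limit here.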

Other observations

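Markers of other cells that the libraries could hold were read beside the 9 genes. Of 8 neutrophil markers 3 were tested and 0 were called by limma (0 at an unadjusted p under 0.05). With haemoglobin left out limma called 0, and 3 were lower at an unadjusted p under 0.05, as were 2390 of 13468 genes tested. Their summed level ran from 742 to 1071 TPM in Itga6hi CD80pos and from 585 to 2594 TPM in Itga6low CD80neg. Most of it was S100a9, which keratinocytes of inflamed skin also make, at 610 and 410 TPM against 363 and 1588 TPM, while Ly6g, Mpo and Elane stayed under 1 TPM. Macrophage and dendritic cell markers summed to 12.03 to 42.7 TPM and 13.5 to 32.3 TPM, and Cd74, a chaperone of antigen presentation, stood at 5.12 and 38.4 TPM against 4.43 and 20.6 TPM. Lyz2, a lysozyme of myeloid cells, was the one call of that list and was lower in all 5 scalings, at 0.135 and 0 TPM against 4.78 and 2.33 TPM (log2 fold change -2.04 ± 0.36, SE, limma adjusted p = 0.00823). Adgre1, Csf1r, C1qa, C1qb and Itgax, all untested for their low level, were also lower in both Itga6hi CD80pos libraries than in both others, as were 12.9% of all genes tested. Mrc1 overlapped between the groups. Cd68 was higher in both on deposited TPM, at 6.39 and 4.03 TPM against 1.44 and 3.89 TPM, without a call (log2 fold change 0.82 ± 0.44, SE, limma adjusted p = 0.149). With haemoglobin left out, the log2 fold change of Cd68 was -0.25 ± 0.44 (adjusted p = 0.716). Lymphocyte markers summed to 0.354 to 0.436 TPM and 3.29 to 5.89 TPM, with Trac lower in Itga6hi CD80pos (log2 fold change -1.17 ± 0.26, SE, limma adjusted p = 0.0148). Endothelial markers summed to 15.8 to 21.0 TPM and 4.76 to 7.48 TPM, with Egfl7 and Vwf higher. With haemoglobin left out neither passed (adjusted p = 0.0514 for Egfl7 and 0.0927 for Vwf). Tek of the same list, under the filter, stood at 0.182 and 0.200 TPM against 6.05 and 0.937 TPM. Lyz2, Vwf, Tek and the other genes named here without being the most abundant of their list were chosen after their values were seen. Lyz2, Trac and Vwf passed the filter only through the group where they were higher, which favoured a call in that direction.

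The most abundant marker of each of the cell types whose levels differed most was Krt14, a keratin of basal keratinocytes, at 26606 and 29432 TPM against 1244 and 4000 TPM, Col3a1, a fibrillar collagen, at 2.22 and 2.56 TPM against 2963 and 2123 TPM, and Hbb-bs, a beta globin, at 81.0 and 22.4 TPM against 328205 and 222614 TPM. The part of these cells in the results on the 9 genes was not tested.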
